A study of Mus musculus with 30 samples.

Results

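Cytosolic ribosomes carry a fixed set of proteins, and this account follows the genes of those proteins through the first 4 days of mouse embryoid body differentiation and after loss of the p53 family. Every row of both deposited expression tables was taken whose symbol is Rpl or Rps with a number and an optional suffix, together with Rplp0, Rplp1, Rplp2 and Rpsa, without -ps pseudogenes and Rps6k kinases. This gave 85 of 23284 genes. They were 43 genes of the 60S subunit, 31 of the 40S subunit, the 3 genes of the P-stalk and 8 paralogues (Rpl3l, Rpl7l1, Rpl10l, Rpl22l1, Rpl36al, Rpl39l, Rps27l and Rps4y2). The other 77 are called canonical here. RNA was sequenced from 14 libraries. The time course used E14Tg2a.IV, a wild-type embryonic stem (ES) cell line of 129/Ola background kept on gelatin with serum and leukaemia inhibitory factor (LIF), as ES cells on day 0 and as embryoid bodies (EBs, floating aggregates of differentiating cells) on days 1, 2, 3 and 4, with 2 libraries a day. The genotype comparison used day 4 EBs of C57BL/6J background, 2 libraries from Trp53-/- cells that also carry shRNAs to knock down p63 and p73 (below, p53 family loss) and 2 from a Trp53+/+ line. These lines were kept in N2B27 with LIF and 2 inhibitors (2i) before EB formation, and each genotype is 1 line. Whether the libraries of a group came from separate cultures is not in the labels, so p-values measure only the spread between these samples.

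Each ribosome is built from a small 40S and a large 60S subunit. Most canonical proteins are normally needed in 1 copy each, and their genes are known for being expressed together. The messenger RNAs of most of them begin with a C and a run of pyrimidines, the 5′ terminal oligopyrimidine (TOP) motif, through which mTOR and Larp1 set how strongly they are translated. The P-stalk proteins recruit elongation factors. The paralogues are different: Rpl10l and Rpl39l are autosomal copies of the X-linked Rpl10 and Rpl39 and are best known from the male germ line of the mouse, Rpl3l replaces Rpl3 in striated muscle, and Rps27l is a p53 target gene in human cells. Free Rpl5 and Rpl11 bind Mdm2, the ligase that degrades p53.

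Start-site sequences are shown for the TOP pattern and for the paralogues that the results turn on, from RefSeq (GRCm38.p6), with 30 bases before the annotated start in lower case and the first 15 transcribed bases in capitals. The first 4 lines are canonical genes with a pyrimidine run at or beside the start, and the rest are 3 paralogues, 2 of them with the parent gene.
Rps10, chr17:27635230-27635274, minus strand: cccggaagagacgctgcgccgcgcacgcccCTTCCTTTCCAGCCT
Rpl35, chr2:39005117-39005161, minus strand: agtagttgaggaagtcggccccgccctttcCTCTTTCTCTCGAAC
Rpl15, chr14:18270972-18271016, minus strand: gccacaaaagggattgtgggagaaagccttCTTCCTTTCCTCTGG
Rpl7a, chr2:26910777-26910821, plus strand: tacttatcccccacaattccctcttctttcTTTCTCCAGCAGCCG
Rpl39l, chr16:10170198-10170242, plus strand: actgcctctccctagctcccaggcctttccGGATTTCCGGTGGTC
Rpl39, chrX:37085208-37085252, minus strand: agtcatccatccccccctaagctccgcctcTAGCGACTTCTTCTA
Rpl10l, chr12:66284387-66284431, minus strand: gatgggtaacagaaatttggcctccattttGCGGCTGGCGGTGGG
Rpl10, chrX:74270786-74270830, plus strand: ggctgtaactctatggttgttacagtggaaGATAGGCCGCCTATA
Rps27l, chr9:66946056-66946100, plus strand: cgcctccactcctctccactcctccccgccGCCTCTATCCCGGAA
A C followed by at least 6 C or T, on the gene's strand and beginning within 20 bases of an annotated start, was present for 36 of the 64 genes of the set found in the promoter table (56.2%), against 24.0% of all 27025 genes in it. It was present for 33 of 57 canonical genes and 3 of 7 paralogues. The letters CGGAAG, on either strand within 250 bases before and 50 after the start, were present for 43 of the 64 genes (67.2%) against 18.8% of all genes. Of the 64, 24 held both patterns, and in 1 gene the patterns shared letters. TATAAA on the gene's strand, looked for between 50 bases before and 15 after the start, was present for 2 of the 64 against 3.47% of all genes. Such matches describe the letters and not binding.

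Read totals were 20104644 to 39835808 per E14 library and 19104692 to 31580252 per genotype library. The values given below are the authors' normalised reads (reads divided by 1 factor per library), where 1 read was worth 0.739 to 1.46. The labels held in the targeted gene: Trp53 had 866 and 802 normalised reads in p53 family loss EBs, against 8339 and 11784 in Trp53+/+ EBs, and Trp73 had 48 and 52 against 219 and 297, while Trp63 had 4.43 and 0 against 6.08 and 5.31 and was too low to test. All 7 ES cell markers fell and all 7 streak and mesendoderm markers rose at day 4 of the E14 course. The day 0 libraries stood apart from each other. Replicate 1 of day 0 exceeded replicate 2 in 83 of 84 ribosomal protein genes tested, by a median of 1.13 on the log2 scale (canonical genes 0.28 to 1.79), where 50.6% of all genes were above and their median was 0.01. In the same direction, 13 of 15 other translation genes with a TOP start were above 0 (median of the 15, 0.51), as were 61 of 76 genes of the mitochondrial ribosome (median of the 76, 0.29), while 38 ribosome assembly factors had a median of -0.04. The keratins Krt8 (13918 against 4261) and Krt18 (13732 against 4072) were higher in replicate 1 too, and the sum of the 7 trophoblast markers, nearly all of it keratin reads, was 29274 against 8662. Myc was lower (1047 against 3793). The part of these differences in the results was not tested, so the day 4 changes of the ribosomal protein genes described below are also given without day 0 replicate 1.

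**Figure D1:**
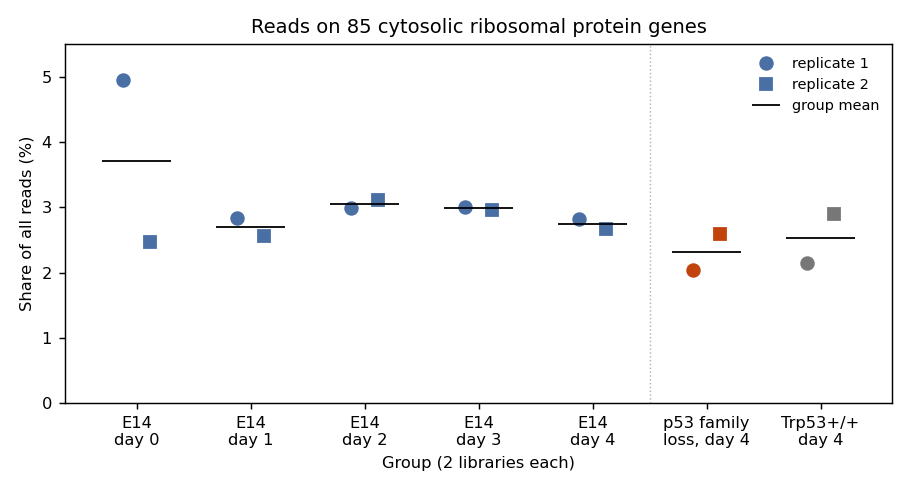
Share of all reads, in percent, on the 85 ribosomal protein genes in each of 14 libraries. Points are libraries, lines are group means, the time course is to the left of the dotted line and the genotype lines to its right. Day 0 replicate 1 is at 4.95% and the other 9 E14 libraries lie between 2.46% and 3.11%.

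The 85 genes took 4.95% and 2.46% of all reads on day 0, 2.84% and 2.57% on day 1, 3.00% and 3.11% on day 2, 3.01% and 2.96% on day 3, and 2.82% and 2.68% on day 4. Group means were 3.71 ± 1.76, 2.70 ± 0.195, 3.06 ± 0.0822, 2.99 ± 0.0350 and 2.75 ± 0.101% (SD, n = 2 each). Apart from day 0 replicate 1, the 9 E14 libraries thus lay within 2.46 to 3.11%, with a median of 2.84%. At these depths the exact binomial 95% interval of a share was narrow (4.94 to 4.96% for day 0 replicate 1), and it covers counting error only. The day 4 mean was 0.741 times the day 0 mean, and 1.12 times it without day 0 replicate 1. Reads on 60S genes were 0.968 to 1.10 times those on 40S genes in the E14 libraries, with the lowest ratio in day 0 replicate 1. Because these are bulk samples, fewer cells of a type and less RNA per cell cannot be told apart.

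Few canonical genes were called between day 4 and day 0. By limma (adjusted p under 0.05 over 15841 genes), 3 of 76 tested canonical genes were lower at day 4 and 0 were higher, against a background of 16.7% of all genes lower and 19.2% higher (36% in all). Scaled by library totals, 8 of the 84 ribosomal protein genes were lower and 0 higher, where 12.9% of all genes were lower and 23.2% higher. At an unadjusted p under 0.05 there were 18 of 84, where 46.6% of all genes were. edgeR called 13 of the 84 and DESeq2 20, all lower, where 16.7% and 19.6% of all genes were lower. The median log2 change of all 84 tested ribosomal protein genes was -0.55, where that of all genes was 0.01. The gap depended on the day 0 library: against day 0 replicate 1 the median was -1.14 and 84 of 84 genes were below 0, and against day 0 replicate 2 it was 0.01 with 41 of 84 below 0. Without replicate 1, 2 canonical genes were lower at day 4 (Rpl9 and Rpl30), where 18.8% of all genes were lower. Without replicate 2, 77 of the 84 genes were lower, where 22.8% of all genes were.

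Of the 60S genes, Rpl4, the most abundantly counted, had 172075 and 99272 normalised reads on day 0 and 90747 to 110809 in the 8 EB libraries. The called 60S genes were Rpl3, Rpl9 and Rpl30. Rpl3, a protein near the peptidyl transferase centre, had 1258 and 1153 at day 4 against 4512 and 1737 at day 0 (log2 change -1.22 ± 0.41 SE, adjusted p = 0.0418, limma), and 964 to 2208 on the days between. The groups did not overlap, but the fall was 0.53 on the log2 scale and not called (limma) without day 0 replicate 1. Rpl9 had 652 and 678 at day 4 against 1795 and 977 at day 0 (-0.99 ± 0.27, adjusted p = 0.0173, limma), and stayed called at -0.55 without that library. Rpl30 had 6.60 and 7.61 at day 4 against 39.5 and 24.9 at day 0 (-2.0 ± 0.47, adjusted p = 0.00945, limma), a count of a few reads for a gene with 10 pseudogene symbols in RefSeq, and -1.68 (adjusted p = 0.0329, limma) without that library. The highest log2 change of a 60S gene was that of Rpl15, with 4659 and 4439 at day 4 against 5199 and 3314 at day 0 (0.13 ± 0.22). Those groups overlapped, and the change was 0.46 (adjusted p = 0.0581, limma) without day 0 replicate 1.

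None of 31 40S genes was called by limma, where 36% of all genes were, and 2 had an unadjusted p under 0.05, where 46.6% of all genes did. Rps13 had 200 and 210 at day 4 against 699 and 291 at day 0 (-1.14 ± 0.42, adjusted p = 0.0581, limma), and Rps27a, made as a fusion with ubiquitin, had 675 and 650 against 2339 and 823 (-1.07 ± 0.41, adjusted p = 0.0665, limma). The groups did not overlap in either gene, and edgeR and DESeq2 called both. Leaving out day 0 replicate 1, the changes were -0.51 for Rps13 (adjusted p = 0.282, limma) and -0.31 for Rps27a (adjusted p = 0.372, limma). Rps2 had the lowest SD of log2 values over the 10 E14 libraries (0.18, not centred), with 15624 and 15805 at day 4 against 16466 and 12495 at day 0 (0.13 ± 0.17, and 0.33 without day 0 replicate 1). Among canonical genes Rps10 showed the widest day 0 gap on the log2 scale, with 12495 in replicate 1 and 3612 in replicate 2. It had 4463 and 4687 at day 4. Among the P-stalk genes, none was called (limma) and none had an unadjusted p under 0.05. Rplp0 had 25541 and 24561 at day 4 against 39949 and 24311 at day 0 (-0.32 ± 0.22), Rplp1 had 22700 and 20736 against 52951 and 22983 (-0.69 ± 0.32), and Rplp2 had 8117 and 8450 against 17159 and 8217 (-0.52 ± 0.28). In Rplp0 and Rplp2 the groups overlapped, and in Rplp1 both day 4 libraries were below both day 0 libraries. Their changes were 0.04, -0.08 and 0.01, in the order Rplp0, Rplp1 and Rplp2, when day 0 replicate 1 was left out.

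**Figure D2:**
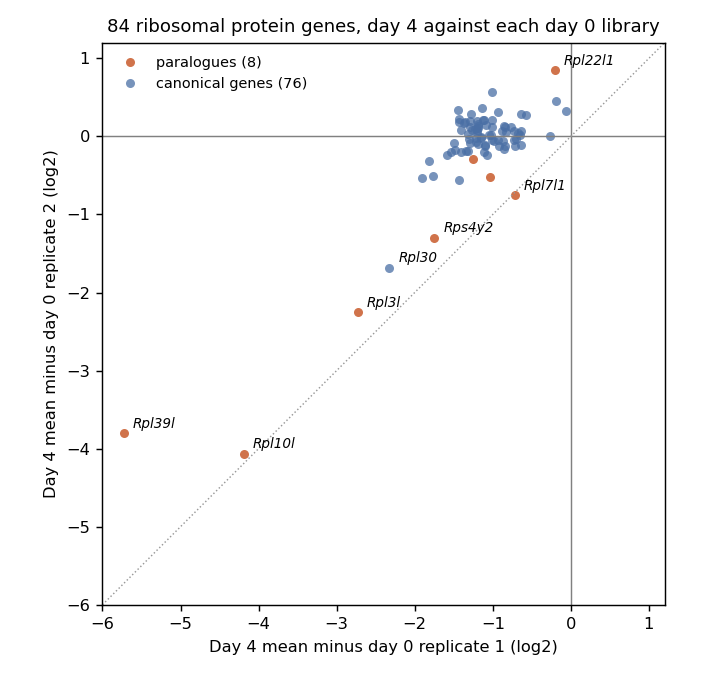
Day 4 mean minus day 0 replicate 1 (horizontal) and minus day 0 replicate 2 (vertical), on the log2(normalised reads + 1) scale, for 84 genes. All 84 genes lie left of 0, and 41 of them lie below 0 vertically. Most canonical genes lie near 0 vertically, with Rpl30 the lowest of them at -1.68. Vertically, Rpl10l lies at -4.06, Rpl39l at -3.80, Rpl3l at -2.25 and Rps4y2 at -1.30.

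Of the 9 genes called by limma, 6 were paralogues, as were 6 of the 13 called by edgeR and 7 of the 20 called by DESeq2. Of the 8 paralogues, 6 fell by limma (Rpl39l, Rpl10l, Rpl3l, Rps4y2, Rpl36al and Rpl7l1) and 0 rose, where 16.7% of all genes fell and 19.2% rose, with a median of -1.15 against 0.01 for all genes. Rpl39l had 4111 and 1083 normalised reads on day 0, 1728 and 1085 on day 1, 838 and 460 on day 2, 302 and 130 on day 3, and 85.8 and 68.5 on day 4. Rpl10l had 1489 and 1368, 2059 and 1012, 753 and 458, 302 and 150, and 79.2 and 82.6 on the same days. In both genes the day 1 libraries overlapped those of day 0, and each later day lay below the day before it, without overlap. The day 4 to day 0 changes were -4.76 ± 0.60 for Rpl39l (adjusted p = 0.000369, limma) and -4.12 ± 0.41 for Rpl10l (adjusted p = 0.000102, limma), and -3.80 and -4.06 in that order without day 0 replicate 1. The falls were also present relative to the X-linked parents: the log2 ratio of Rpl39l to Rpl39 was lower by 4.26 at day 4 than at day 0, and that of Rpl10l to Rpl10 by 3.29.

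Rpl3l was counted at low depth, 9.07 and 9.78 at day 4 against 68.0 and 48.7 at day 0 (-2.49 ± 0.41, adjusted p = 0.00146, limma), and its day 1 libraries, 55.1 and 76.7, overlapped day 0. Rps4y2, which RefSeq lists as the transcribed pseudogene Rps4l on chromosome 6 and which overlaps Tmtc1, had 5652 and 6798 at day 4 against 20836 and 15264 at day 0 (-1.52 ± 0.20, adjusted p = 0.000469, limma). Its relative Rps4x, on the X chromosome, was not called. Smaller falls were seen in Rpl36al, 3271 and 3192 against 6613 and 4622 (-0.77 ± 0.18, adjusted p = 0.00898, limma), and Rpl7l1, 6620 and 7098 against 11253 and 11539 (-0.73 ± 0.17, adjusted p = 0.00903, limma). Rpl7l1 was the 1 gene of the 84 in which day 0 replicate 1 was not above replicate 2. Rps27l, 4280 and 3632 at day 4 against 9395 and 4805 at day 0, missed the threshold (-0.77 ± 0.30, adjusted p = 0.0687, limma), and was at -0.29 without day 0 replicate 1. Rpl22l1, a paralogue of Rpl22, had 3510 and 3152 at day 4 against 3841 and 1851 at day 0, with overlap (0.32 ± 0.28). Without day 0 replicate 1 it was higher by 0.85 (adjusted p = 0.00273, limma), where 21.3% of all genes were higher, and its log2 ratio to Rpl22 was higher at day 4 by 0.78 with both libraries. All 6 called paralogues stayed called without day 0 replicate 1, with -2.25 for Rpl3l, -1.30 for Rps4y2, -0.52 for Rpl36al and -0.75 for Rpl7l1, and 4 of them (Rpl39l, Rpl10l, Rpl3l and Rps4y2) did without any 1 library of the course. The smallest sets were 4 genes without day 4 replicate 1, where 7.78% of all genes were lower, and 5 without day 4 replicate 2, where 8.24% were.

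**Figure D3:**
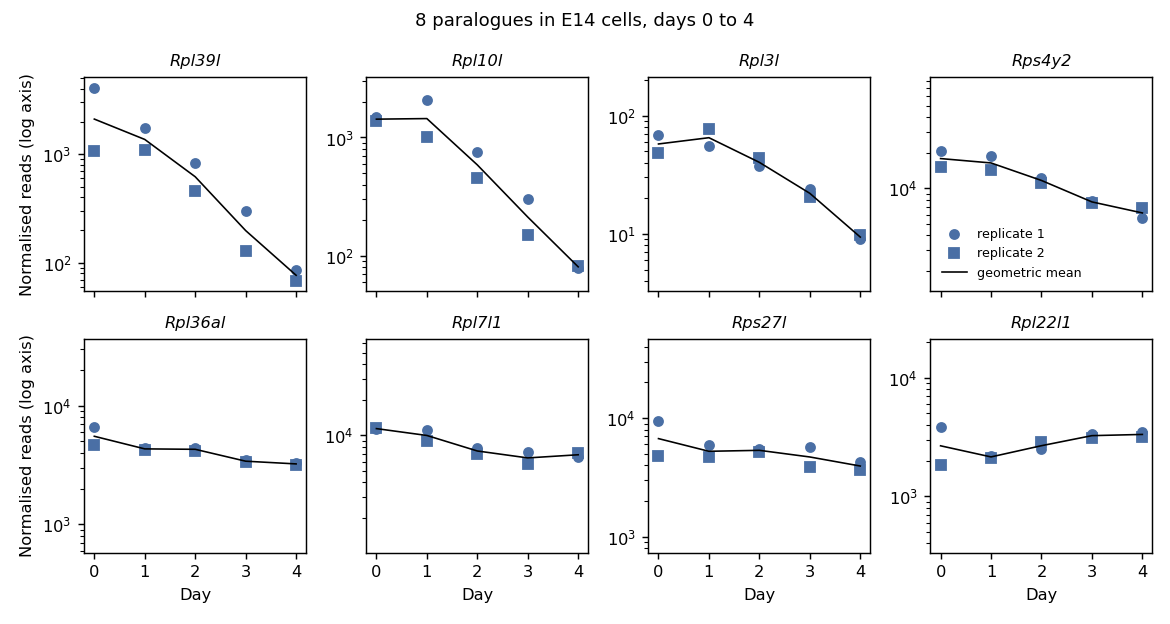
Normalised reads of the 8 paralogues by day in the 10 E14 libraries, each panel with its own log axis. Points are libraries and the line joins the geometric means of the days. Rpl39l, Rpl10l, Rpl3l, Rps4y2, Rpl36al and Rps27l are at their lowest mean on day 4, and Rpl22l1 lies higher on days 3 and 4 than on day 1.

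Across the whole course, 7 of the 84 genes changed by limma's F test over 5 days (6 paralogues and Rpl30), against 38.9% of all genes. The count was 10 without day 0 replicate 1 (51.2% of all genes), 76 without day 0 replicate 2 (64.6%) and 5 without any 1 of the 8 EB libraries (21.2 to 34.7%). The size of movement after day 0 differed between the kinds. Over days 1 to 4, the highest minus the lowest day mean on the log2 scale had a median of 0.23 among the 76 canonical genes (0.05 for Rps24 to 1.43 for Rpl30), and of 1.02 among the 8 paralogues (0.42 for Rpl36al to 4.14 for Rpl39l). Once each library was centred on its canonical median, the SD of a canonical gene over the 10 E14 libraries had a median of 0.14, with Rpsa, the laminin receptor protein of the 40S subunit, lowest at 0.07. Without that centring the median was 0.38. The centring used the median of these same genes and removes any shift they share, such as that of day 0 replicate 1. A lower SD thus follows in part from the method, and other gene sets were not centred in this way. Paralogues took 3.47 and 5.15% of the reads of the set on day 0, 4.99 and 4.46% on day 1, 3.75 and 3.36% on day 2, 3.18 and 2.76% on day 3 and 2.87 and 3.01% on day 4.

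Between neighbouring days, limma called 0 of the 84 genes at every step, where it called 3.3% of all genes for day 1 against day 0, 0.593% for day 2 against day 1, 0.133% for day 3 against day 2 and 2.93% for day 4 against day 3. At an unadjusted p under 0.05 there were 4, 3, 3 and 3 genes, where 20.1%, 19.3%, 10.4% and 14.9% of all genes were. Rpl10l was among them at each of the later 3 steps, with log2 changes of -1.30, -1.46 and -1.39. edgeR called 0 at every step, against 3.18%, 0.48%, 0.152% and 2.87% of all genes. DESeq2 called 1 at each, Rpl9 for day 1 against day 0 and Rpl10l at the others, against 9.33%, 8.47%, 2.16% and 6.61%. Without day 0 replicate 2, 70 genes were lower on day 1 than on day 0, where 15.3% of all genes were.

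Part of the genes that build ribosomes fell at day 4, where 16.7% of all genes fell and 19.2% rose. Of 38 ribosome assembly factors, 24 fell, 0 rose and 14 did not pass (median -0.65); those that fell included Rrp9, a U3 small nucleolar RNA binding protein, with 2909 and 3109 at day 4 against 9203 and 7529 at day 0. Of 14 tested RNA polymerase I genes and factors, 7 fell and 0 rose (median -0.78), including Rrn3 and Ubtf, which start and maintain transcription of the ribosomal DNA. Rrn3 had 4824 and 4985 against 12704 and 12338, and Ubtf had 7589 and 7021 against 14672 and 15332. Without day 0 replicate 1 the assembly factors had 28 falls of 38 and a median of -0.72, and the polymerase I list 8 of 14 and -0.66. Mitochondrial ribosomal protein genes had 37 falls and 0 rises of 76 (median -0.57), and 28 falls and 2 rises without that library (median -0.45). Of 15 other translation genes with a TOP start, 2 fell and 0 rose, and 0 fell and 2 rose without it. Of 25 initiation factors 7 fell and 1 rose, and 8 fell and 1 rose without it. Among 18 regulators of ribosome production, 5 fell and 3 rose with both day 0 libraries and without replicate 1: Mycn had 4056 and 5631 at day 4 against 11349 and 11938 at day 0, Eif4ebp1 fell by 1.39 on the log2 scale and Mycl1 rose by 2.87. The difference between these lists and the ribosomal protein genes was not tested.

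In the genotype comparison, which asks what the loss of the p53 family changed at day 4, no ribosomal protein gene was called. limma called 0 of 84, against 1.24% of all 14840 genes tested (0.566% higher and 0.674% lower). edgeR also called 0, and DESeq2 called 2 (Rpl3 and Rps27l, both lower), where it called 2.71% of all genes lower. By limma, 7 genes had an unadjusted p under 0.05, where 13.9% of all genes did. The groups did not overlap in 12 genes that were lower and 2 that were higher, against 20.2% and 23% of all genes. The median log2 change was -0.14, where that of all genes was 0.01. The share of all reads was 2.03 and 2.60% in p53 family loss EBs, against 2.15 and 2.90% in Trp53+/+ EBs, so the groups overlapped. Replicate 2 was above replicate 1 within both lines, in 76 of 84 genes for p53 family loss (median 0.39, 53.2% of all genes above) and in 78 of 84 for Trp53+/+ (median 0.49, 48.9% of all genes). The ribosomal RNA precursor Rn45s differed the same way, with 0.848 and 2.91% of reads in p53 family loss EBs and 0.632 and 4.30% in Trp53+/+ EBs. Its part in the result was not tested. Set side by side by replicate number, which the labels do not say pairs the libraries, the median change was -0.13 for number 1 and -0.20 for number 2. The direction of the median depended on single libraries, however: it was 0.085 without Trp53+/+ replicate 2 and 0.06 without p53 family loss replicate 1, -0.38 without Trp53+/+ replicate 1 and -0.35 without p53 family loss replicate 2. Each of these fits set 1 library against 2, so the difference between replicates 1 and 2 enters the comparison. Genes called lower in those 4 fits, given in the same order, were 2, 0, 8 and 1, where 3.87%, 0.896%, 4.15% and 0.79% of all genes were.

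Of the 7 genes with an unadjusted p under 0.05, 6 had a lower value after p53 family loss. Rps27l had 1101 and 1792 normalised reads in p53 family loss EBs, against 2376 and 3494 in Trp53+/+ EBs (-1.04 ± 0.29, unadjusted p = 0.0108, adjusted p = 0.185, limma), and the groups did not overlap. Rpl3 had 2615 and 2752 against 4690 and 5816 (-0.96 ± 0.17, adjusted p = 0.0636, limma), again without overlap. Both passed the threshold by limma without Trp53+/+ replicate 1 and without Trp53+/+ replicate 2, and Rps27l also did without p53 family loss replicate 2. In these fits the arm left with 1 library is assumed to vary like the other. Rpl39l, at 4.43 and 5.16 against 13.9 and 18.6 (-1.56 ± 0.49, adjusted p = 0.231, limma), rested on few reads. Rpl32, which overlaps Cand2, had 12014 and 16170 against 18985 and 26926 (-0.70 ± 0.24, adjusted p = 0.271, limma), and Rps4y2 had 5678 and 6585 against 8199 and 9937 (-0.56 ± 0.17, adjusted p = 0.222, limma). Neither pair of groups overlapped. Rpl9 had 351 and 366 against 476 and 511 (-0.46, adjusted p = 0.354, limma).

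Fewer genes had a higher value after p53 family loss. Rpl10l had 79.8 and 75.7 in p53 family loss EBs against 46.9 and 33.2 in Trp53+/+ EBs (0.96 ± 0.33, adjusted p = 0.275, limma), and Rpl3l had 13.3 and 16.3 against 9.56 and 3.98 (1.12 ± 0.56, adjusted p = 0.471, limma), without overlap in either. Rplp0 had the highest log2 change among canonical genes, with 33568 and 47567 against 25462 and 37395 and with overlap (0.37 ± 0.27). The other P-stalk genes were at -0.48 ± 0.31 for Rplp1, with 13870 and 22231 against 19395 and 31040, and -0.07 ± 0.24 for Rplp2. The Mdm2-binding Rpl5 had 307 and 291 against 318 and 280 (0.00 ± 0.21), and Rpl11 had 1038 and 1246 against 1247 and 1497 (-0.26 ± 0.18). Of the assembly factors, the polymerase I list, the initiation factors, the other TOP genes, the regulators and the mitochondrial ribosomal proteins, limma called 0 in each. Over all genes, 13.9% had an unadjusted p under 0.05 (limma). In these lists there were 4 of 38, 0 of 14, 0 of 25, 0 of 15, 2 of 18 and 5 of 76. The smallest p-values were those of the nucleolar methyltransferase Nop2 and of Myc. Nop2 had 5167 and 5499 against 8608 and 9459 (adjusted p = 0.0859, limma). Myc had 736 and 952 against 1745 and 2381 (adjusted p = 0.0636, limma). Cell type markers moved in the same comparison: 6 of 7 streak and mesendoderm markers were lower, with sums of 6782 and 7021 against 32476 and 36643, and 3 of 5 tested neuroectoderm markers were higher, with sums of 3664 and 3261 against 136 and 178. Their part in the ribosomal protein values was not tested.

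**Figure D4:**
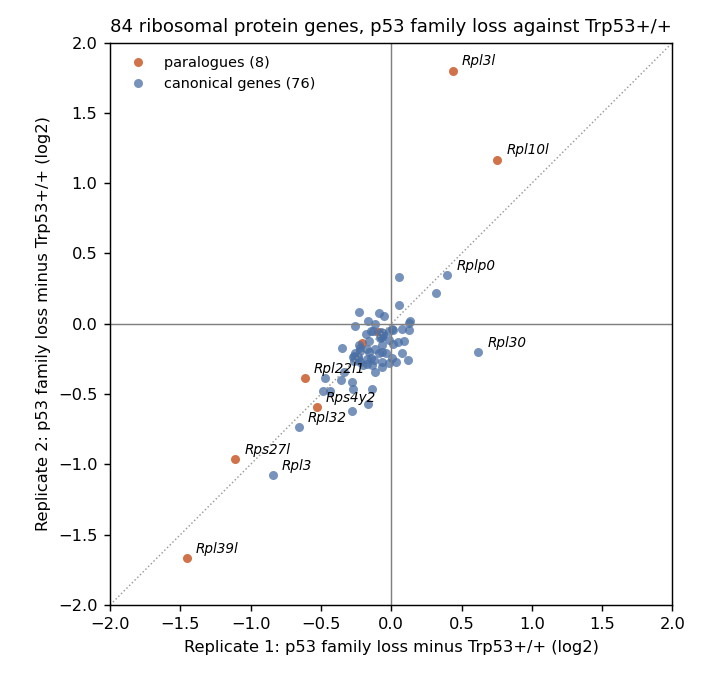
p53 family loss minus Trp53+/+ on the log2(normalised reads + 1) scale, between the libraries of replicate 1 (horizontal) and of replicate 2 (vertical), for 84 genes; the number does not pair the libraries by the labels. Most canonical genes lie just below 0 on both axes, and Rpl39l, Rps27l, Rpl3 and Rpl32 lie lower while Rpl10l and Rpl3l lie higher in both replicates.

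How much of a gene's messenger RNA these counts can see differed between the genes. Mean CPM (reads scaled to an equal library total) over the E14 libraries ran from 0.565 for Rpl30, 1.25 for Rpl3l and 2.11 for Rps27 to 2428 for Rps3, 2599 for Rpl8 and 3488 for Rpl4, without correction for transcript length. Rpl26 was listed at 0 in all 14 libraries. RefSeq has pseudogene symbols for 64 of the 85 genes, 12 of the 85 overlap another coding gene, and the library kit does not mark strand, so reads of copies and neighbours are uncertain in them. Between the 2 tables, which were normalised separately and allow no test, 3 genes whose ranges did not overlap stood furthest apart in CPM. Rpl29 was at 161 and 173 in p53 family loss EBs and 157 and 206 in Trp53+/+ EBs, and at 2.93 to 5.43 in the 10 E14 libraries, and Rps3a was at 186 and 246, 174 and 220, and 14.1 to 31.6 in the same groups. Rpl39l was lower in the genotype table, at 0.190 and 0.208 in p53 family loss EBs and 0.576 and 0.733 in Trp53+/+ EBs. It was at 2.29 to 122 in the E14 libraries of days 0 to 4. On day 4, the day of the genotype EBs, E14 had 2.95 and 2.29. Strain, line, medium and table cannot be told apart here.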

How the data were processed

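RNA-seq of 14 libraries was analysed, and 16 ChIP-seq and input samples were not analysed here. The deposited tables give, per the file headers and the values, a signal that the authors made by dividing each gene's read count by 1 factor per library. This was checked on the files: 100% of values were whole multiples of 1 step per library within 1e-06, which returned whole reads. The submitters' processing notes list HTSeq 0.5.4, DESeq2, SAMtools 0.1.19, Bowtie2 and FastQC 0.11.3 and the mm9 build, without saying what each was used for. Libraries were made with a TruSeq RNA v2 kit, per the labels' protocols.

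Groups were tested on log2(signal + 1) by limma 3.58.1 in R 4.3.3 (trend on), with Benjamini-Hochberg adjustment over all genes tested and a threshold of 0.05. Fold changes are on that scale, which understates changes of low genes. Genes were filtered with filterByExpr on the recovered reads, leaving 15841 genes in the time course (5 residual and 4.98 prior degrees of freedom) and 14840 in the genotype table (2 and 4.33). Both fits, and the tests of each list, used the genes that passed this filter. Alternatives were edgeR 4.0.16 (quasi-likelihood, TMM) and DESeq2 1.42.0 on recovered reads, library-total and TMM scaling with and without the ribosomal protein genes, a pseudocount of 8, no filter, the replicate block and leaving out each library. The script was tested on simulated data.

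The genes and lists were chosen with earlier results of these data known. Genes are named by rule: all paralogues and P-stalk genes, the largest rises and falls, the extremes of CPM, and up to 3 genes of each other list. Others named (Rpl5, Rpl11, Rps10, Rps2, Rps13, Rps27a, Rpsa, Rpl29, Rps3a, Krt8 and Krt18) were added after their values were seen. All 85 symbols matched RefSeq genes (GRCm38.p6), and 64 had a promoter sequence. The values of 1 ribosomal protein gene are not reported here.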

Additional observations from a re-analysis of the deposited data

How the results depend on the processing

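For day 4 against day 0, the count of called genes was 9 in the reported fit, and 8 to 13 under edgeR, the other scalings, a pseudocount of 8, no filter and the replicate block. DESeq2 called 20, all lower (19.6% of all genes lower). Leaving out 1 library at a time gave 4 to 77 (17.3% and 46.8% of all genes called in those fits), with 4 to 77 lower and 0 to 2 higher. The F test went from 7 to 11 with DESeq2 (49.7% of all genes) and to 5 to 76 when single libraries were left out. Day 1 against day 0 had 0 calls, 1 with DESeq2 and 0 to 70 with single libraries left out (31.8% of all genes where it was 70), and each later step had 0, with 1 by DESeq2 and 0 in every leave-one-out fit. The library behind each extreme is named with the results above. Without replicate 1 of day 4, 4 genes were called and without replicate 2, 5. The share ratio of day 4 over day 0, 0.741, was 0.740 without the 100 most abundant other genes, 0.740 without Rn45s (an alternative added after seeing the data), and 0.555 to 1.12 with single libraries left out. The same ratio for p53 family loss over Trp53+/+ was 0.916, and 0.798 to 1.08.

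For p53 family loss against Trp53+/+, the 0 calls became 2 with DESeq2 (2 lower) and 0 to 8 (all lower) with single libraries left out: 8 without Trp53+/+ replicate 1, 2 without its replicate 2 and 1 without p53 family loss replicate 2. The median of -0.14 ran from -0.38 to 0.085 over those 4 fits. By the labels, same-numbered samples shared only a number. Their deviations correlated at 0.57 for the single genotype pair, where replicate 2 was above replicate 1 in most genes of the set in both lines. Between days the correlations were -0.19 to 0.35. These values do not establish pairing. With the replicate block, 13 genes were called in the genotype fit (11 lower and 2 higher, where 20% of all genes were called) and 13 for day 4 against day 0 (36.5% of all genes). Scaling by library totals moved the median of all genes by day 4 to 0.17, and the genes of the set lay 0.56 below that median, as in the reported fit. Of the 9 genes called at day 4, Rpl10l, Rpl39l, Rpl3l and Rps4y2 passed in 18 of 18 alternatives, and Rpl3 missed the threshold in 9. The genes followed over all alternatives were these 9 and, for the genotypes, Rpl3, Rpl10l, Rpl32, Rpl39l, Rps4y2 and Rps27l. None of them reversed its direction, but they were picked for a call or a small p-value. Other genes did reverse with the day 0 library: Rpl15 at day 4 was at -0.19 against day 0 replicate 1 and at 0.46 against replicate 2. The causes of these differences were not tested. Depth limits Rpl30, Rpl3l and, in the genotype lines, Rpl39l, which rest on few reads.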
